A study of Mus musculus with 12 samples.

Results

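Most of the 33 genes described here encode proteins of homologous recombination, of the Fanconi anaemia pathway and of the checkpoint that goes with them. The other 3, Parp1, Polq and Msh6, were grouped as other repair genes. The 33 genes were taken by symbol from a table of 78275 gene IDs. They and the lists set beside them were chosen with earlier results of these data known. Their shares of higher or lower genes therefore describe the lists and cannot be read as an independent test of enrichment. All 33 were among the 15030 genes whose counts were high enough to be tested. The cells were C2C12, a mouse myoblast line that fuses into myotubes when serum is withdrawn. Uninduced control cells received a non-targeting siRNA and uninduced knockdown cells an siRNA against Zfp143, which encodes the zinc finger transcription factor ZNF143, and both were harvested 24 hours after transfection in growth medium (10% fetal bovine serum). Induced control and induced knockdown cells were transfected in the same way, moved at 24 hours to medium with 1% horse serum and collected on day 5. Induction, serum and time since transfection thus differ together and cannot be told apart, also where knockdown effects before and after induction are compared. All 4 groups are C2C12 cells labelled wild type, transfected with an siRNA, and each has 3 libraries of polyadenylated RNA. Whether a group's libraries stem from separate cultures is not stated, so the p-values measure the spread between libraries, which may be technical.

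Homologous recombination mends a broken chromosome by copying the sister chromatid. The broken ends are trimmed to single strands, BRCA1, BARD1, PALB2 and BRCA2 prepare them for strand exchange, and the single strand then invades the intact copy. The Fanconi anaemia pathway removes crosslinks between DNA strands and hands the resulting breaks to recombination, while the kinases ATR and CHEK1 hold the cell cycle when replication forks stall. Most of these proteins work in S and G2 phase, and myoblasts leave the cell cycle as they differentiate, so expression of these genes is usually read beside that of the replication genes.

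The total of estimated counts lay between 13.5 and 19.1 M per library, and 2 libraries stood apart. Uninduced control replicate 3 had a TMM factor (the scaling factor of edgeR) of 0.799 and 6.02% of its counts in mitochondrial genes, against 2.63% and 2.90% in the other libraries of its group. Induced knockdown replicate 1 was the library with the lowest total, and it held 1.95% of mitochondrial counts against 3.44% and 3.47%. Levels are given as CPM, counts per 1 M reads scaled by TMM factors, and changes as log2 fold changes with the SE of the fit. A gene is called higher or lower at an adjusted p under 0.05 in edgeR's quasi-likelihood test. The targeted gene Zfp143 was measured at 23.2, 27.8 and 39.8 CPM in the uninduced control libraries and at 12.2, 11.9 and 10.1 CPM in the uninduced knockdown libraries, a log2 change of -1.41 ± 0.18 (SE, adjusted p = 6.12e-05). After 5 days it stood at 19.7, 19.3 and 19.3 CPM in control and 14.7, 16.8 and 19.7 CPM in knockdown libraries, and the change of -0.18 ± 0.18 (SE, adjusted p = 0.646) was not called. So Zfp143 was lower in the libraries labelled knockdown before induction, and on day 5 the 95% confidence interval of the log2 change ran from -0.57 to 0.20.

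Markers of myoblasts and myotubes were present. The summed level of 8 myotube markers was 7.66 to 8.62 CPM in uninduced control libraries, 26.9 to 34.1 CPM in uninduced knockdown libraries, 6626 to 8268 CPM in induced control libraries and 2251 to 2890 CPM in induced knockdown libraries. The 6 myoblast markers summed to 555.4 to 626.0 CPM in uninduced control, 578.6 to 666.4 CPM in uninduced knockdown, 2480 to 2921 CPM in induced control and 1789 to 2204 CPM in induced knockdown libraries. The 6 fibroblast markers were also present, at 1048 to 1312 CPM in uninduced control and 608.9 to 742.1 CPM in uninduced knockdown libraries, and at 10830 to 11790 CPM in induced control and 7945 to 9372 CPM in induced knockdown libraries. The 6 markers of macrophages and leukocytes were low, with Adgre1 at 0 in every library, but differed between groups. They summed to 1.87 to 3.15 CPM in uninduced control, 9.15 to 10.4 CPM in uninduced knockdown, 3.58 to 4.06 CPM in induced control and 2.33 to 3.85 CPM in induced knockdown libraries. Markers of endothelial cells summed to 2.50 to 7.79 CPM. Adipocyte markers summed to 29.2 to 90.6 CPM and markers of osteoblasts and chondrocytes to 65.9 to 117.8 CPM, with Ibsp at 0 in every library. In bulk RNA such as this, fewer cells of a type and less RNA per cell cannot be told apart.

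Sequence upstream of 24 of the 33 genes was found in the RefSeq promoter table (build GRCm38.p6, 250 bases before to 50 after the annotated start). The 250 bases before the start are printed for 6 genes: 4 genes of the BRCA1 and BRCA2 group, which moved together in induced cells, and the 2 genes that hold the ZNF143 core. Each runs 5′ to 3′ on the gene's own strand, in lower case, with every match to a searched motif, on either strand, in capitals. The motifs were ACTACAA and CCCAGNATG (parts of the ZNF143 site), TTTNGCGC and TTTCCCGC (E2F), TTTGAA (the CHR element of cell cycle genes) and CCAAT (NF-Y).
Brca1, chr11:101551956-101552205, minus strand: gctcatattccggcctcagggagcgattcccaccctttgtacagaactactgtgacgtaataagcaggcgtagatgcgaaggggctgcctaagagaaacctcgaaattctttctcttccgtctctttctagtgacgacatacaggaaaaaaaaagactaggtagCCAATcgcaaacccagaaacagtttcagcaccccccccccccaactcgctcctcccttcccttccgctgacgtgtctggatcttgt
Bard1, chr1:71102973-71103222, minus strand: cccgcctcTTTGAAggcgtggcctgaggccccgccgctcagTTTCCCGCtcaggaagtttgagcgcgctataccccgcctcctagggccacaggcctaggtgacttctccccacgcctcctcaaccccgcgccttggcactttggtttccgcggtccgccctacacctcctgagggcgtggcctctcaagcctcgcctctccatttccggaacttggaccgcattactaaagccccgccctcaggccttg
Brca2, chr5:150522371-150522620, plus strand: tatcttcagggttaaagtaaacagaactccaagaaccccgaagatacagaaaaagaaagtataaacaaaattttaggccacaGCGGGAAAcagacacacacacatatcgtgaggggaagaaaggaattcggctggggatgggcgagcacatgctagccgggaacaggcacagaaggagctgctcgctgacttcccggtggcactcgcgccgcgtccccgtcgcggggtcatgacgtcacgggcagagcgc
Brip1, chr11:86201194-86201443, minus strand: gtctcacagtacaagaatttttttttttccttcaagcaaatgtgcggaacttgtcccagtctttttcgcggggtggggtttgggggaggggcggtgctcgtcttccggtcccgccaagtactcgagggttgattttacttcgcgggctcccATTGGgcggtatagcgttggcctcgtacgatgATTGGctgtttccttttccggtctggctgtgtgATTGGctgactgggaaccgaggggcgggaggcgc
Fanca, chr8:123318577-123318826, minus strand: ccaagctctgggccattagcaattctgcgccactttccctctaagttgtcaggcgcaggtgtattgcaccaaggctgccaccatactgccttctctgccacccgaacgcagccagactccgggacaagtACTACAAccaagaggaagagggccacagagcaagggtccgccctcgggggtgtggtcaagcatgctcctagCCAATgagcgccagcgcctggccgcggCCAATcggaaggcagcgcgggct
Chek2, chr5:110839733-110839982, plus strand: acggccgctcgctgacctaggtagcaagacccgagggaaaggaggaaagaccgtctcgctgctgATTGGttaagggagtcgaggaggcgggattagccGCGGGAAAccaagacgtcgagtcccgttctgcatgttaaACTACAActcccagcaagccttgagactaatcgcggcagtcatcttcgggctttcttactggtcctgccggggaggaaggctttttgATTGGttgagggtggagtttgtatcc

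The ZNF143 core ACTACAA was found in Fanca, beginning 121 bases before the start, and in Chek2, beginning 113 bases before it. These are 8.33% of the 24 genes, beside 9.52% of the 42 replication genes with a window and 3.78% of all 27025 genes in the table. The longer part CCCAGNATG was in none of the 24, in 9.52% of the replication genes and in 2.33% of all genes. TTTCCCGC was in Bard1, Brca2, Chek2 and Msh6, which is 16.7% of the 24 genes, against 19.0% of the replication genes and 1.24% of all genes. TTTNGCGC was in Chek2 and Clspn, or 8.33%, against 26.2% of the replication genes and 1.57% of all genes. CCAAT was in 15 of the 24 genes (62.5%), against 54.8% and 41.1%; Brca1 has 1 copy beginning 86 bases before the start, Fanca 2 copies, and Brip1 3 copies on the opposite strand. TTTGAA was in Bard1, Eme1 and Polq, or 12.5%, against 16.7% and 20.2%. The searched letters do not overlap one another in the 6 sequences, and a match is a description of the sequence only. Fanca and Chek2, which share the ACTACAA core, changed by 0.31 (adjusted p = 0.374) and 0.41 (adjusted p = 0.0705) in uninduced knockdown cells in edgeR's test. Neither was called there, though DESeq2 and limma-voom called Chek2 higher. In induced knockdown cells both were higher in edgeR's test, by 1.54 (adjusted p = 0.000752) and 0.80 (adjusted p = 0.00755). The part of the motif in these changes was not tested.

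Per transcript length, most of the genes were expressed at low levels. The mean over the 12 libraries was under 5 TPM (transcripts per 1 M, the deposited scale that allows genes to be compared) in 19 genes and 5 TPM or more in 14. The lowest were Palb2 at 1.59 TPM, Polq at 1.60 TPM and Pif1 at 1.62 TPM. The highest were Tipin at 41.6 TPM, Parp1 at 28.1 TPM, Msh6 at 22.6 TPM and Nbn at 14.4 TPM. The median over the 33 genes was 4.34 TPM in uninduced control, 3.39 TPM in uninduced knockdown, 2.68 TPM in induced control and 5.79 TPM in induced knockdown cells. TPM is not scaled by TMM factors and depends on transcript length, so it can order groups otherwise than CPM does. Nbn, for example, averaged 14.9 and 15.3 TPM in uninduced and induced knockdown cells, but 32.1 and 20.75 CPM. On the CPM scale, 28 genes had their lowest mean in induced control cells and 5 in uninduced knockdown cells. The highest mean was in uninduced control cells for 20 genes, in induced knockdown cells for 10 and in uninduced knockdown cells for 3.

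**Figure D1:**
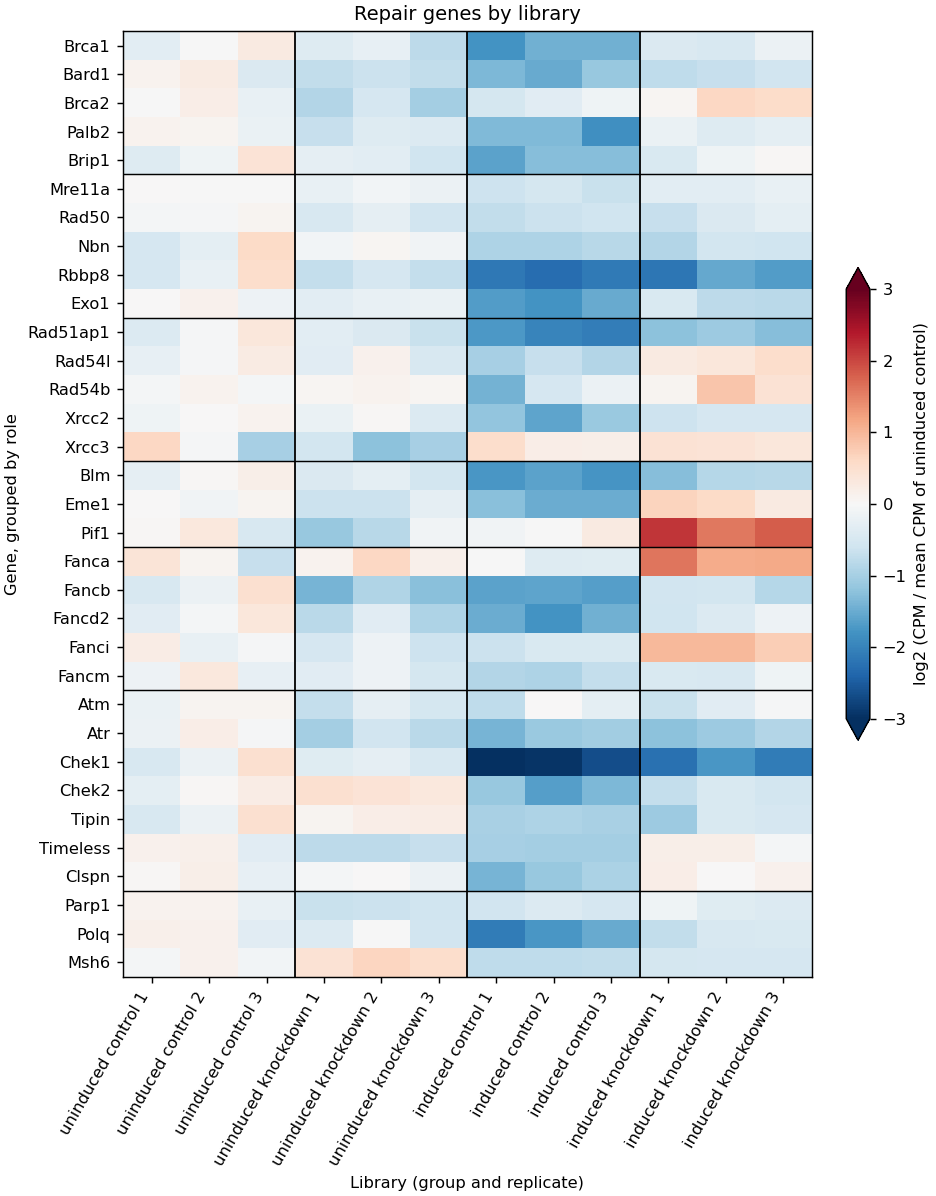
Level of the 33 repair genes (rows, grouped by role) in each of the 12 libraries (columns), as the log2 ratio of CPM to the mean of the 3 uninduced control libraries. Blue is lower and red is higher. The 3 induced control columns are blue for nearly all genes, while in the 3 induced knockdown columns Pif1, Fanca, Fanci and Eme1 are red.

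With the siRNA against Zfp143 in uninduced cells, the genes fell or were not called, with Msh6 as the 1 exception. In edgeR's test 10 of 33 were lower and 1 was higher, or 30.3% and 3.03%, where 17.1% of all tested genes were lower and 15.4% higher. The median log2 change was -0.41 over the 33 genes and -0.04 over all tested genes. Every knockdown library lay below every control library for 14 genes (22.8% of all tested genes) and above for 2, Msh6 and Chek2 (21.0% of all tested genes).

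Among the genes of the BRCA1 and BRCA2 group, Bard1 and Brca2 fell. Bard1, whose protein is the obligate partner of BRCA1, was at 27.4, 29.97 and 18.6 CPM in control and 15.1, 16.3 and 15.2 CPM in knockdown libraries, a change of -0.71 ± 0.17 (SE, adjusted p = 0.00517). All 3 knockdown libraries lay below the lowest control library. Brca2, a tumour suppressor gene of recombination, went from 14.4, 16.6 and 12.3 CPM to 7.88, 10.2 and 7.12 CPM, -0.78 ± 0.19 (SE, adjusted p = 0.00677), again without overlap. Brca1 itself was at 29.5, 36.1 and 43.8 CPM in control and 27.9, 30.7 and 21.2 CPM in knockdown libraries, groups that overlap, and its change of -0.45 ± 0.17 (SE, adjusted p = 0.0597) was not called. Brca1 was called lower under 4 of 22 alternatives: without uninduced control replicate 1 (adjusted p = 0.0238), without uninduced knockdown replicate 2 (adjusted p = 0.0443), without a filter on low counts (adjusted p = 0.0339) and with the transcript length offset (adjusted p = 0.0447).

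Of the Fanconi genes, Fancb and Fancd2 fell. Fancb, a subunit of the core complex that ubiquitinates FANCD2 and FANCI, went from 5.16, 6.37 and 9.92 CPM to 2.74, 3.84 and 2.995 CPM. Its log2 change of -1.16 ± 0.24 (SE, adjusted p = 0.00236) was the largest fall among the 33 genes, and uninduced control replicate 3 was the highest control library. Fancd2 went from 14.5, 17.6 and 23.1 CPM to 10.4, 14.5 and 9.66 CPM, -0.67 ± 0.20 (SE, adjusted p = 0.0198), and the highest knockdown and lowest control library lay side by side at 14.5 CPM. Fanca, Fanci and Fancm were not called, with log2 changes of 0.31, -0.41 and -0.34.

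In the checkpoint group, Atr and Timeless fell. Atr, the kinase that answers stalled forks, went from 45.8, 59.4 and 51.2 CPM to 25.6, 34.95 and 29.6 CPM, -0.80 ± 0.15 (SE, adjusted p = 0.00132). Timeless, which steadies the fork together with TIPIN, went from 39.4, 39.7 and 28.6 CPM to 20.7, 20.8 and 22.04 CPM, -0.76 ± 0.14 (SE, adjusted p = 0.000849). Neither pair of groups overlapped. Tipin, the partner of Timeless, was not called: it was at 25.8, 31.9 and 49.7 CPM in control and 38.2, 41.4 and 41.7 CPM in knockdown libraries, 0.18 ± 0.20 (SE, adjusted p = 0.544). Uninduced control replicate 3 was the library with the most Tipin, and without it Tipin was called higher (0.49, adjusted p = 0.0283), as was Chek2 (0.53, adjusted p = 0.0215), which was called higher under 5 of 22 alternatives in all, DESeq2 and limma-voom among them.

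Parp1, the enzyme that marks DNA breaks with poly(ADP-ribose), fell from 106, 107 and 84.1 CPM to 62.6, 63.3 and 65.1 CPM, -0.64 ± 0.12 (SE, adjusted p = 0.0012). Msh6, a mismatch recognition protein, rose from 68.03, 76.5 and 66.7 CPM to 95.3, 110 and 102 CPM, 0.54 ± 0.10 (SE, adjusted p = 0.00133), with all 3 knockdown libraries above all controls. Among end resection genes Rad50 (-0.43) and Rbbp8 (-0.64) were lower, and among strand exchange genes Xrcc3 (-0.91). Nbn, the third subunit of the MRE11 complex, showed how much a value could rest on uninduced control replicate 3: its controls were 23.3, 26.8 and 48.8 CPM and its knockdown libraries 31.2, 34.6 and 30.4 CPM. Its log2 change was -0.04 (adjusted p = 0.922) with all libraries and 0.36 (adjusted p = 0.0426) without that library.

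The 6 calls of lower Bard1, Brca2, Fancb, Atr, Timeless and Parp1 and that of higher Msh6 held under all 22 alternatives. Calls lost without a library were those of Rad50 (without uninduced knockdown replicate 1 or 3, adjusted p = 0.0708 to 0.0899), Rbbp8 (without uninduced control replicate 3 or uninduced knockdown replicate 1 or 2 or 3, adjusted p = 0.0517 to 0.189), Xrcc3 (without uninduced control replicate 1 or 2 or uninduced knockdown replicate 2 or 3, adjusted p = 0.063 to 0.212) and Fancd2 (without uninduced control replicate 3 or uninduced knockdown replicate 1 or 3, adjusted p = 0.07 to 0.0939). Rbbp8 and Xrcc3 also lost their calls with limma-voom (adjusted p = 0.0508 and 0.0749). The same held in edgeR with only the groups of the comparison fitted (adjusted p = 0.074 and 0.111). Atm was called lower without a filter on low counts and with the replicate block (adjusted p = 0.0173 to 0.0247). Called lower without a library, and not with all 12, were Brca1 (above), Rad51ap1 (without uninduced control replicate 1, adjusted p = 0.0154), Blm (without uninduced control replicate 1 or induced knockdown replicate 1, adjusted p = 0.0315 and 0.0341, and also with the transcript length offset and the replicate block), Pif1 (without uninduced knockdown replicate 3, adjusted p = 0.0453) and Fanci (without uninduced knockdown replicate 2, adjusted p = 0.0449). Without uninduced control replicate 3 there were 8 lower and 4 higher genes, and without both libraries that stand apart 13 and 4. In the same comparison 6 of 10 p53 response genes were higher, with a summed level of 3247 to 3594 CPM in control and 5252 to 5923 CPM in knockdown libraries. Of 12 markers of cycling cells 2 were higher and 5 lower, and they summed to 612.8 to 942.1 CPM in control and 514.5 to 607.5 CPM in knockdown libraries, with no marker at 0. Of the 3 tested macrophage and leukocyte markers 2 were higher, and of the 5 tested fibroblast markers 1 was higher and 1 lower, with the summed levels given above. The part of these lists in the repair result was not tested.

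In induced cells most of the genes rose with the knockdown. With the siRNA against Zfp143, 22 of the 33 genes were higher after 5 days of induction and 0 were lower (66.7% and 0%), where 3.73% of all tested genes were higher and 5.77% lower. The count of 0 lower genes was also 0 at an unadjusted p under 0.05 in edgeR, in DESeq2 and in limma-voom. The median log2 change was 0.80, against -0.03 over all tested genes. For 26 genes every knockdown library lay above every control library, as for 12.3% of all tested genes.

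**Figure D2:**
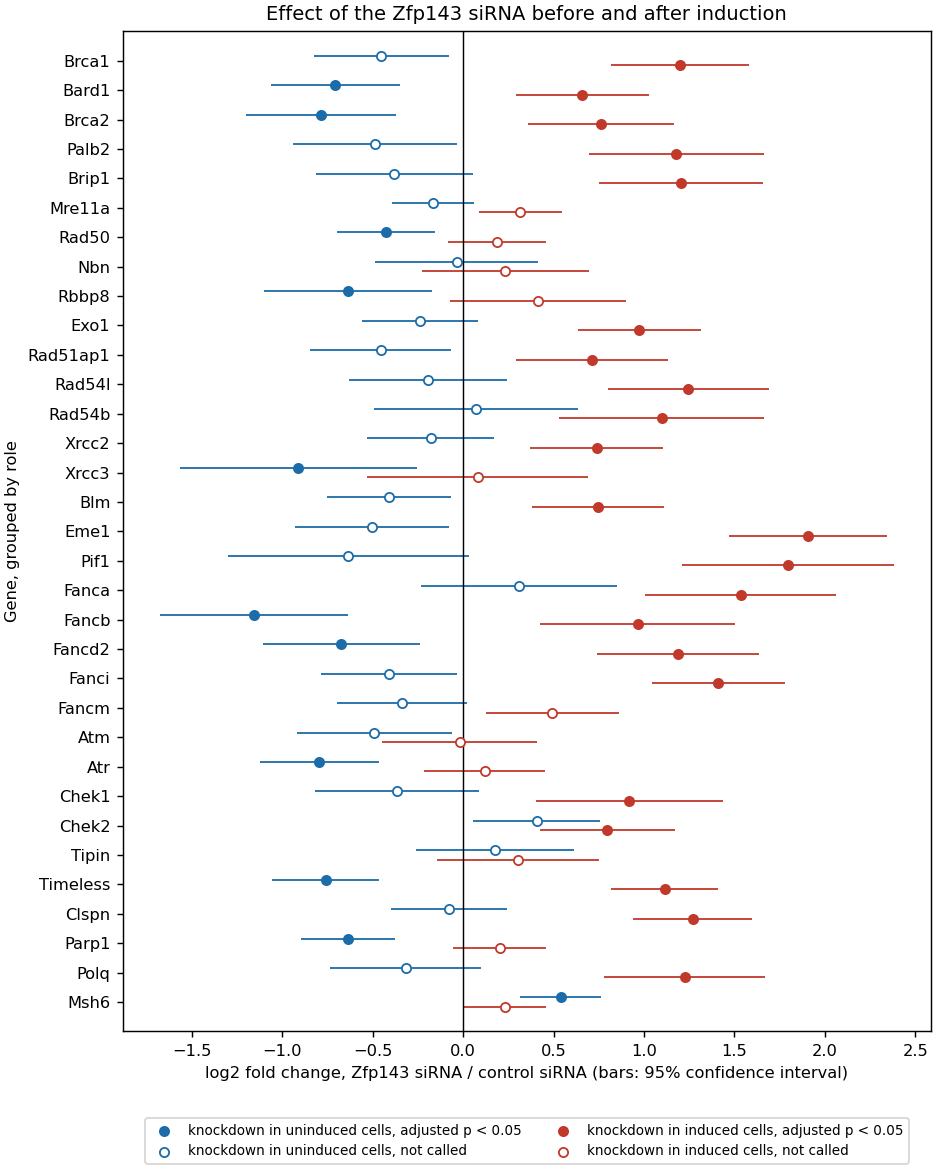
Log2 fold change of each repair gene between the siRNA against Zfp143 and the control siRNA, in uninduced cells (blue) and in induced cells (red), with 95% confidence intervals; filled points have an adjusted p under 0.05. Most blue points lie left of 0 and most red points right of it; Msh6 is the 1 filled blue point to the right.

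All 5 genes of the BRCA1 and BRCA2 group were higher. Brca1 was at 10.5, 13.4 and 13.3 CPM in induced control and 26.97, 26.3 and 32.1 CPM in induced knockdown libraries, a change of 1.20 ± 0.18 (SE, adjusted p = 0.000394), or 2.29-fold. All 3 knockdown libraries held more Brca1 than any induced control library. Palb2, the bridge between BRCA1 and BRCA2, went from 1.72, 1.74 and 1.21 CPM to 3.79, 3.32 and 3.50 CPM, 1.18 ± 0.23 (SE, adjusted p = 0.00273). Brip1, the BRCA1-bound helicase, went from 4.68, 5.85 and 5.82 CPM to 10.3, 12.9 and 14.5 CPM, 1.20 ± 0.21 (SE, adjusted p = 0.00149). In these genes no knockdown library overlapped a control library. Bard1 and Brca2 were higher by smaller amounts, 0.66 (adjusted p = 0.0232) and 0.76 (adjusted p = 0.0171).

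All 3 helicase and resolution genes rose, and Eme1 and Pif1 had the largest changes of the 33 genes. Eme1, a subunit of the MUS81 nuclease that cuts joint molecules, was at 1.98, 1.69 and 1.68 CPM in control and 7.44, 7.03 and 5.66 CPM in knockdown libraries. Its change of 1.91 ± 0.21 (SE, adjusted p = 1.92e-05) is 3.75-fold, and its knockdown libraries were also above all libraries of the uninduced groups. Pif1, a helicase that opens G-quadruplexes, went from 1.87, 2.003 and 2.41 CPM to 8.90, 5.99 and 7.06 CPM, 1.80 ± 0.27 (SE, adjusted p = 0.000475), and was likewise above every uninduced library. Blm, the Bloom helicase, went from 5.15, 5.69 and 5.14 CPM to 7.24, 9.65 and 9.86 CPM, 0.75 ± 0.17 (SE, adjusted p = 0.00994).

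Among Fanconi genes, Fanca, Fancb, Fancd2 and Fanci rose. Fanci, which is ubiquitinated with FANCD2, went from 4.84, 5.43 and 5.51 CPM to 14.8, 14.8 and 12.5 CPM, 1.41 ± 0.17 (SE, adjusted p = 6.39e-05). Fancd2 went from 6.56, 5.32 and 6.82 CPM to 12.1, 13.8 and 16.7 CPM, 1.19 ± 0.21 (SE, adjusted p = 0.00155). Fanca, a core complex subunit, went from 5.47, 4.22 and 4.30 CPM to 16.7, 11.8 and 12.1 CPM, 1.54 ± 0.25 (SE, adjusted p = 0.000752). In each of the 3 the lowest knockdown library stood above the highest control library. Fancb rose by 0.96 (adjusted p = 0.0227), and Fancm, a fork-remodelling translocase, changed by 0.49 without being called (adjusted p = 0.0979).

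Strand exchange and resection genes divided. Rad54l, a motor protein of strand exchange, rose from 2.86, 3.53 and 3.10 CPM to 6.91, 7.28 and 8.31 CPM, 1.25 ± 0.21 (SE, adjusted p = 0.000955). Its relative Rad54b, the strand exchange gene Xrcc2 and Rad51ap1 rose by 1.10, 0.74 and 0.71. Xrcc3, the partner of Rad51c in strand exchange, was not called, with 9.42, 7.48 and 7.45 CPM in control and 8.83, 8.66 and 8.26 CPM in knockdown libraries, 0.08 ± 0.29 (SE, adjusted p = 0.922). Of the 5 resection genes only the exonuclease gene Exo1 was called, at 4.53, 4.16 and 5.04 CPM in control and 10.6, 8.32 and 8.21 CPM in knockdown libraries, 0.97 ± 0.16 (SE, adjusted p = 0.000798). The 3 subunits of the MRE11 complex changed by 0.32 (Mre11a), 0.19 (Rad50) and 0.23 (Nbn) and Rbbp8, its cofactor CtIP, by 0.42, none of them called. Rbbp8 was called higher without both libraries that stand apart (0.58, adjusted p = 0.00276). Mre11a was called without uninduced control replicate 3 (0.32, adjusted p = 0.0435), as was Fancm (0.50, adjusted p = 0.0485), and each was called under 4 of 22 alternatives in all, the transcript length offset among them and, for Mre11a, DESeq2.

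In the checkpoint group, Timeless, Clspn, Chek1 and Chek2 rose and Atm, Atr and Tipin were not called. Tipin was called higher without both libraries that stand apart (0.47, adjusted p = 0.00505). Timeless went from 17.9, 17.8 and 17.7 CPM to 40.9, 40.4 and 34.4 CPM, 1.12 ± 0.14 (SE, adjusted p = 7.4e-05). Clspn, the adaptor through which ATR reaches CHEK1, went from 6.66, 7.96 and 9.13 CPM to 20.3, 17.7 and 19.3 CPM, 1.27 ± 0.16 (SE, adjusted p = 6.49e-05). Both sets of knockdown libraries stood clear of the controls. The kinase genes Chek1 and Chek2 rose by 0.92 (adjusted p = 0.0238) and 0.80 (adjusted p = 0.00755), whereas Atm and Atr, which act above them, changed by -0.02 (adjusted p = 0.978) and 0.12 (adjusted p = 0.749). Polq, the polymerase of microhomology-mediated joining, rose from 3.18, 4.06 and 4.83 CPM to 8.24, 9.85 and 10.1 CPM, 1.22 ± 0.21 (SE, adjusted p = 0.00113); Parp1 and Msh6 changed by 0.20 and 0.23 and were not called.

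The calls of 12 of the 22 genes held under all 22 alternatives, among them Brca1, Brip1, Eme1, Pif1, Fanca, Fancd2, Fanci, Timeless and Clspn. Without a library, calls were lost for Bard1 (without induced control replicate 1 or 2 or induced knockdown replicate 2 or 3, adjusted p = 0.0633 to 0.128), Brca2 (without induced control replicate 1 or 2 or induced knockdown replicate 2 or 3, adjusted p = 0.0678 to 0.0923), Fancb (without induced control replicate 1 or 2 or 3 or induced knockdown replicate 1 or 2, adjusted p = 0.0543 to 0.0851), Rad51ap1 (without induced control replicate 2 or 3 or induced knockdown replicate 1 or 2 or 3, adjusted p = 0.0528 to 0.137), Chek1 (without induced control replicate 1 or 2 or induced knockdown replicate 2, adjusted p = 0.0884 to 0.12), Rad54b (without induced control replicate 1 or induced knockdown replicate 2, adjusted p = 0.0581 to 0.0907), Xrcc2 (without induced control replicate 2, adjusted p = 0.0772), Chek2 (without induced control replicate 2, adjusted p = 0.0567) and Blm (without induced knockdown replicate 2, adjusted p = 0.0511). Palb2 lost its call with an offset for transcript length (0.80, adjusted p = 0.135). Chek1 and Rad51ap1 also lost their calls with limma-voom (adjusted p = 0.0565 and 0.0555). The count of higher genes was 15 without induced control replicate 2 or without induced knockdown replicate 2, and 26 without both libraries that stand apart.

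Markers of cycling cells and of myotubes moved in the same comparison. Of the 12 cycling markers 11 were higher and 0 lower in induced knockdown cells (0 also at an unadjusted p under 0.05 in edgeR, DESeq2 and limma-voom). They summed to 493.8 to 547.8 CPM in induced control and 1131 to 1312 CPM in induced knockdown libraries, with no marker at 0. All 8 myotube markers, 2 of 5 tested fibroblast markers, 1 of 6 myoblast markers and 4 of 10 p53 response genes were lower, and 0 genes of these lists were called higher in edgeR, DESeq2 or limma-voom (1 p53 response gene was at an unadjusted p under 0.05 in each tool). The sums of the marker lists are given above, and the p53 response genes summed to 1251 to 1381 CPM in control and 1021 to 1054 CPM in knockdown libraries. The part of these lists in the change of the repair genes was not tested.

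In control cells, induction, with its change of serum and later collection, was accompanied by lower levels of 27 of the 33 genes, with 0 higher (81.8% and 0%). Of all tested genes 30.9% were lower and 33.2% higher. The count of 0 higher genes was 0 at an unadjusted p under 0.05 as well, in edgeR, DESeq2 and limma-voom, and no gene had every induced library above every uninduced one (35.8% of all tested genes). The median log2 change was -1.16, against 0.03 over all tested genes, and for 28 genes every induced library lay below every uninduced one (32.4% of all tested genes).

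Chek1 had the largest fall: its libraries went from 23.96, 29.6 and 46.6 CPM before to 3.59, 4.37 and 5.25 CPM after induction, -2.92 ± 0.23 (SE, adjusted p = 5.12e-08), or 7.57-fold lower. Rbbp8 went from 40.4, 49.3 and 82.1 CPM to 13.01, 11.7 and 13.1 CPM, -2.18 ± 0.22 (SE, adjusted p = 8.49e-07). Rad51ap1 went from 14.6, 18.9 and 24.7 CPM to 5.88, 4.95 and 4.62 CPM, -1.91 ± 0.19 (SE, adjusted p = 5.79e-07). In all 3 genes uninduced control replicate 3 was the highest library. Polq, Blm and Exo1 followed with -1.77, -1.71 and -1.66. The 5 smallest called falls were those of Mre11a (-0.61), Rad50 (-0.65), Msh6 (-0.75), Fanci (-0.51) and Parp1 (-0.50).

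The 6 genes not called were Brca2, Rad54b, Xrcc3, Pif1, Fanca and Atm. Brca2 was at 14.4, 16.6 and 12.3 CPM before and 10.1, 11.4 and 13.2 CPM after induction, -0.32 ± 0.19 (SE, adjusted p = 0.152), while Brca1 fell by 1.55 on the log2 scale. Pif1 was at 2.07, 2.53 and 1.45 CPM before and 1.87, 2.003 and 2.41 CPM after, and Fanca at 7.23, 5.87 and 3.42 and 5.47, 4.22 and 4.30 CPM. Their ranges overlapped. Of the 27 falls 25 held under all alternatives; Parp1 lost its call with library size as the only scaling (adjusted p = 0.0747), and Fanci with that scaling (adjusted p = 0.134), without uninduced control replicate 1 (adjusted p = 0.0843) or without induced control replicate 1 (adjusted p = 0.0665). Without uninduced control replicate 1, Xrcc3 was called higher (0.73, adjusted p = 0.0261), and Rad54b was called lower under 7 of 22 alternatives (adjusted p = 0.0146 to 0.046), among them limma-voom, the transcript length offset, the replicate block and the fits without induced control replicate 3 (-0.90, adjusted p = 0.0158) or induced knockdown replicate 1 (-0.61, adjusted p = 0.046).

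Markers of cycling cells divided in the same comparison. Of the 12 cycling markers 5 were lower and 3 higher on induction of control cells, with a median log2 change of -0.22. They summed to 612.8 to 942.1 CPM before and 493.8 to 547.8 CPM after induction. Mki67, the proliferation antigen, was among the 3 higher markers and rose by 0.80 (adjusted p = 0.000525). All 8 myotube markers and all 5 tested fibroblast markers rose, and of the 6 myoblast markers 5 were higher and 1 lower. Of the 10 p53 response genes 7 were lower and 1 higher. The part of these lists in the change of the repair genes was not tested.

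In knockdown cells, the same 5 days of induction left the repair genes divided. 9 were lower, 9 higher and 15 not called, or 27.3% each way, beside 30.1% lower and 36.0% higher among all tested genes, so these shares lie near the background. The median log2 change was 0.10, the same as that over all tested genes. Every induced knockdown library was below every uninduced knockdown library for 10 genes and above for 11 (33.7% and 38.5% of all tested genes).

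**Figure D3:**
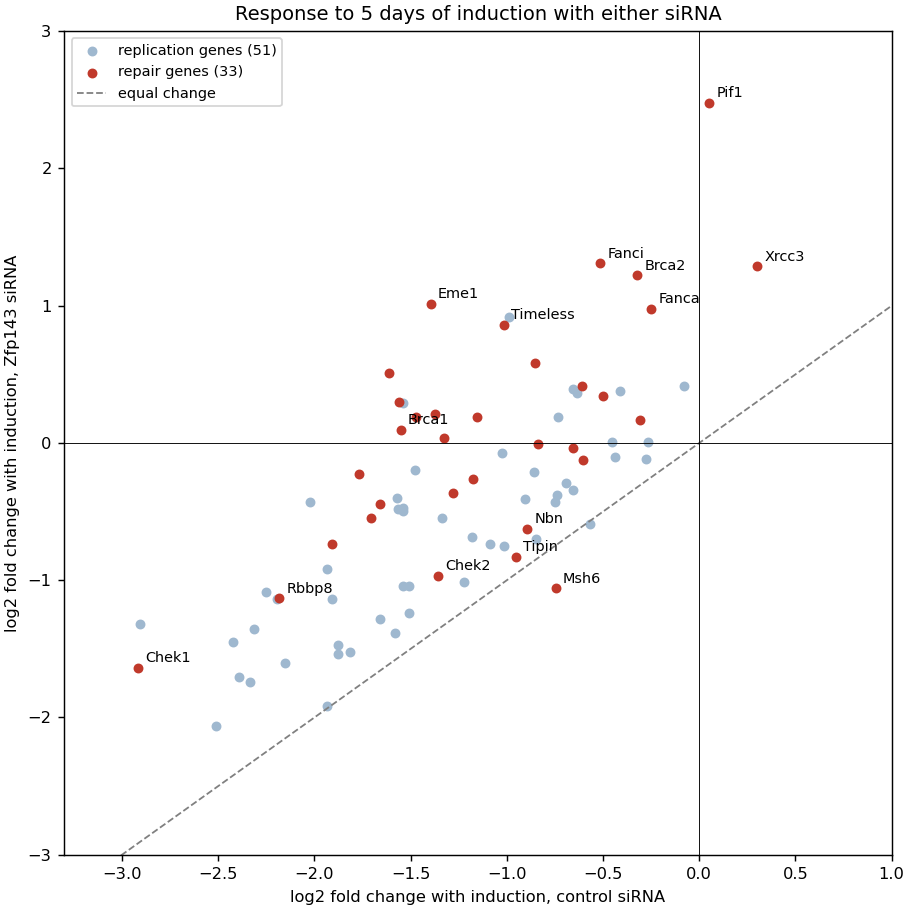
Log2 fold change with 5 days of induction in control cells (horizontal axis) and in knockdown cells (vertical axis) for the 33 repair genes (red) and 51 replication genes (blue); the dashed line marks an equal change. Msh6 is the 1 repair gene below the line, and Pif1, Fanci, Xrcc3, Brca2 and Eme1 lie highest.

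The 9 genes higher after induction of knockdown cells were Pif1, Fanci, Xrcc3, Brca2, Eme1, Fanca, Timeless, Rad54l and Parp1. Pif1 went from 0.913, 1.12 and 1.87 CPM to 8.90, 5.99 and 7.06 CPM, 2.48 ± 0.29 (SE, adjusted p = 3.16e-06). Fanci went from 5.31, 6.73 and 4.92 CPM to 14.8, 14.8 and 12.5 CPM, 1.31 ± 0.17 (SE, adjusted p = 1.04e-05). Brca2 went from 7.88, 10.2 and 7.12 CPM to 15.01, 22.3 and 21.3 CPM, 1.22 ± 0.19 (SE, adjusted p = 5.83e-05). The induced knockdown libraries lay above all uninduced knockdown libraries in these 3 genes. Of the 9, Rad54l, Eme1, Fanci, Timeless and Parp1 had fallen with induction in control cells.

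The 9 lower genes were Chek1, Rbbp8, Msh6, Chek2, Tipin, Rad51ap1, Nbn, Blm and Exo1, all of which also fell in control cells. Chek1 went from 25.9, 27.8 and 24.02 CPM to 7.04, 9.999 and 7.86 CPM, -1.64 ± 0.22 (SE, adjusted p = 1.52e-05). Msh6 went from 95.3, 110 and 102 CPM to 48.7, 49.5 and 49.5 CPM, -1.06 ± 0.11 (SE, adjusted p = 5.56e-07). Each of these 2 genes was lower in all 3 induced libraries. Brca1, Bard1, Palb2 and Brip1 were not called, with log2 changes between 0.04 and 0.21. Without a library, calls were lost for Nbn (without uninduced knockdown replicate 2 or induced knockdown replicate 1, adjusted p = 0.0568 to 0.063), Exo1 (without uninduced knockdown replicate 3 or induced knockdown replicate 2 or 3, adjusted p = 0.055 to 0.0723), Rad54l (without uninduced knockdown replicate 1 or 3 or induced knockdown replicate 3, adjusted p = 0.0695 to 0.0899) and Parp1 (without uninduced knockdown replicate 1 or 2 or induced knockdown replicate 1, adjusted p = 0.0592 to 0.0747). Xrcc2 was called lower without uninduced control replicate 3 or uninduced knockdown replicate 3 (adjusted p = 0.0491 and 0.0422), and Fancb higher without uninduced control replicate 3 (adjusted p = 0.0377). With library size as the only scaling, a choice that moves the median of all genes from 0.10 to 0.35, 14 genes were higher and 6 lower, and Blm, Exo1 and Nbn were not called. In the same comparison 8 of 12 cycling markers were higher and 1 lower, with a median of 1.36, and they summed to 514.5 to 607.5 CPM before and 1131 to 1312 CPM after induction. All 10 p53 response genes were lower, with a summed level of 5252 to 5923 CPM before and 1021 to 1054 CPM after induction. The part of either list in the repair result was not tested.

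The test of the difference between the knockdown effects, induced minus uninduced, called 26 of the 33 genes higher and 0 lower (78.8%), where 10.6% of all tested genes were higher and 11.8% lower. The count of 0 lower genes was 0 at an unadjusted p under 0.05 in edgeR and limma-voom and 1 in DESeq2. The median difference was 1.21 on the log2 scale, against 0.02 over all tested genes. It was 2.43 ± 0.42 (SE) for Pif1, 2.41 ± 0.29 for Eme1, 2.12 ± 0.35 for Fancb, 1.88 ± 0.20 for Timeless and 1.65 ± 0.25 for Brca1, with adjusted p of 0.000784, 3.78e-05, 0.000615, 1.23e-05 and 0.000316 in edgeR. Bard1, Brca2, Fancb, Fancd2 and Timeless were called lower with the knockdown before induction and higher after it. For 17 genes the knockdown effect was called after induction and not before it; 5 genes were lower before induction and not called after it (Rad50, Rbbp8, Xrcc3, Atr and Parp1).

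The 7 genes without a called difference were Nbn, Rad54b, Xrcc3, Atm, Chek2, Tipin and Msh6, with differences from -0.31 (Msh6) to 1.03 (Rad54b). Of the 26 calls 20 held under all 21 alternatives that give this difference. The others were lost in part: Mre11a (without uninduced control replicate 1 or 2 or uninduced knockdown replicate 1 or 3 or induced control replicate 1 or 2 or 3 or induced knockdown replicate 2 or 3, adjusted p = 0.0512 to 0.0892), Rad50 (without uninduced knockdown replicate 1 or 3 or induced control replicate 1 or induced knockdown replicate 2 or 3, adjusted p = 0.0501 to 0.0722), Rbbp8 (without uninduced knockdown replicate 1 or 3 or induced control replicate 1 or 2 or induced knockdown replicate 2 or 3, adjusted p = 0.0529 to 0.0691), Fanca (without uninduced control replicate 1 or uninduced knockdown replicate 1 or 3 or induced control replicate 2 or 3, adjusted p = 0.0524 to 0.0599) and Fancm (without uninduced control replicate 2 or uninduced knockdown replicate 1 or 3 or induced control replicate 1 or 2 or induced knockdown replicate 3, adjusted p = 0.0524 to 0.0674). Mre11a also lost its call without a filter on low counts (adjusted p = 0.181), and Palb2 with the transcript length offset (1.12, adjusted p = 0.065). Xrcc3 was called without uninduced control replicate 3 (1.30, adjusted p = 0.00476), as under 2 other alternatives. The missing call of Rad54b depends on the processing: it was called under 8 of the 21 alternatives (adjusted p = 0.0127 to 0.0496), among them DESeq2, limma-voom, the transcript length offset, the replicate block and the fits without induced control replicate 3 (1.31, adjusted p = 0.0267) or induced knockdown replicate 1 (1.19, adjusted p = 0.0301). For the same difference 10 of 12 cycling markers were higher, with a median of 1.64, and 6 of 10 p53 response genes and 2 of 3 tested macrophage and leukocyte markers were lower. The part of these lists in the difference was not tested.

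**Figure D4:**
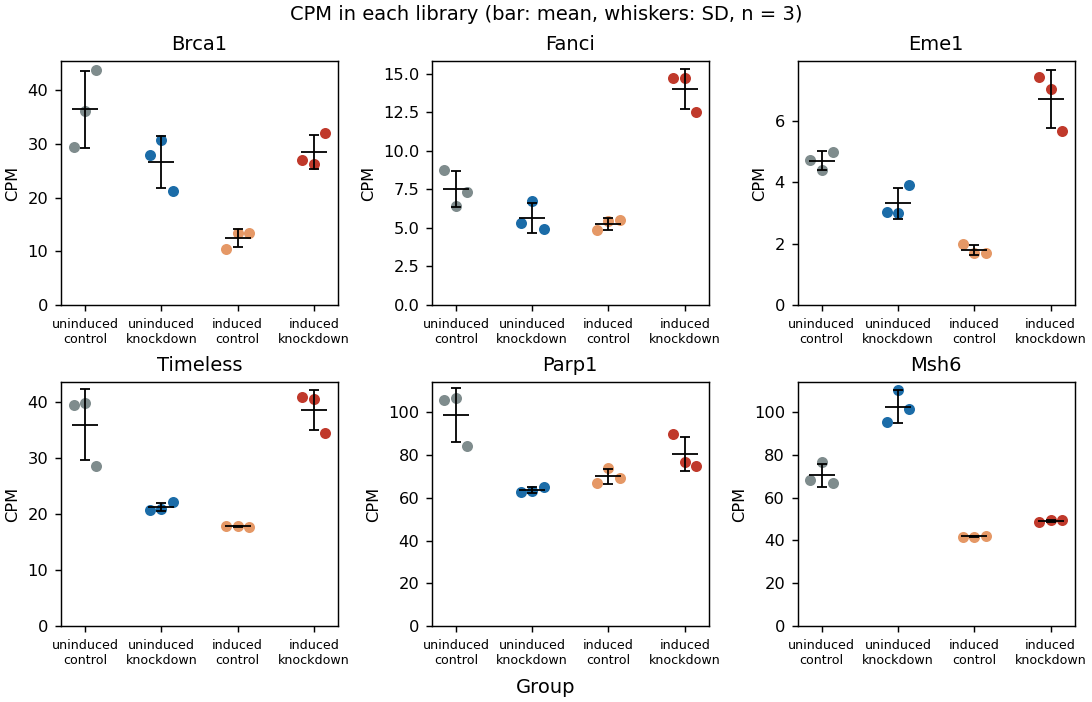
CPM of 6 repair genes in each of the 12 libraries (points), with the mean and SD of each group of 3. Brca1, Fanci, Eme1 and Timeless are higher in induced knockdown than in induced control libraries without overlap, Parp1 is lower in uninduced knockdown than in uninduced control libraries, and Msh6 is highest in uninduced knockdown libraries.

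Set beside 51 replication genes, the repair genes took the same direction in 2 comparisons, and also in the difference in knockdown effect given below. With the knockdown in induced cells, 33 of 51 replication genes rose and 0 fell (0 also at an unadjusted p under 0.05 in edgeR, DESeq2 and limma-voom), with a median of 0.76, against 22 of 33 repair genes and a median of 0.80. The replication genes that rose are 64.7% of their list, beside 3.73% of all tested genes. With induction in control cells, 47 of 51 replication genes fell (92.2%, beside 30.9% of all tested genes), with a median of -1.51, against 27 of 33 and -1.16. Mcm2, a subunit of the replicative helicase, changed by 0.82 with the knockdown in induced cells and by -2.42 with induction in control cells, and Cdc6, which loads it, by 0.99 and -2.39. The medians of all tested genes in these comparisons were -0.03 and 0.03.

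With the knockdown in uninduced cells the replication genes showed no common direction in the fit of all 12 libraries. 6 rose, 4 fell and 41 were not called, and the median was -0.01. The shares are 11.8% higher and 7.84% lower, both below the 15.4% and 17.1% of all tested genes. Every knockdown library was above every control library for 10 and below for 9, beside 21.0% and 22.8% of all tested genes. Rrm2, the small subunit of ribonucleotide reductase, rose by 0.55 (adjusted p = 0.00236), Orc1, of the origin recognition complex, by 0.61 (adjusted p = 0.008), and Pola1, the catalytic subunit of the priming polymerase, changed by -1.01 (adjusted p = 0.00302). Uninduced control replicate 3 was the control library with the most Pola1 and the most Pcna. Pola1 was at 57.4, 70.1 and 109.3 CPM in control and 38.0, 45.3 and 34.1 CPM in knockdown libraries. Pcna was at 151.0, 179.2 and 320.6 CPM and at 292.5, 293.2 and 271.3 CPM. Counts of called replication genes without that library are not given here. The median of the repair genes lay 0.40 below that of the replication genes. Without 1 library this difference of medians was -0.51 to -0.35. The difference between the lists' median log2 CPM in single libraries had a within-group SD of 0.15. That SD describes levels, not the gap in log2 fold changes, which was not tested.

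With induction in knockdown cells, 33 of 51 replication genes fell and 4 rose, with a median of -0.59, while the repair genes had a median of 0.10 with 9 calls each way. For the replication genes that is 64.7% lower and 7.84% higher, beside 30.1% and 36.0% of all tested genes. Mcm2 and Mcm5 were still lower, by 1.45 and 0.92 on the log2 scale, as was Pcna, the sliding clamp (-1.92). The difference in knockdown effect was called higher for 23 of 51 replication genes (45.1%, beside 10.6% of all tested genes) with a median of 0.50, against 26 of 33 and 1.21 for the repair genes. The medians of the repair genes lay above those of the replication genes by 0.69 for induction in knockdown cells and by 0.71 for the difference in knockdown effect. For induction in control cells the gap was 0.35, and it was 0.05 without uninduced control replicate 3; the gap for the difference in knockdown effect was 0.88 without that library. These medians describe the lists and were not tested against each other, and comparisons that share a group of libraries are not independent.

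**Figure D5:**
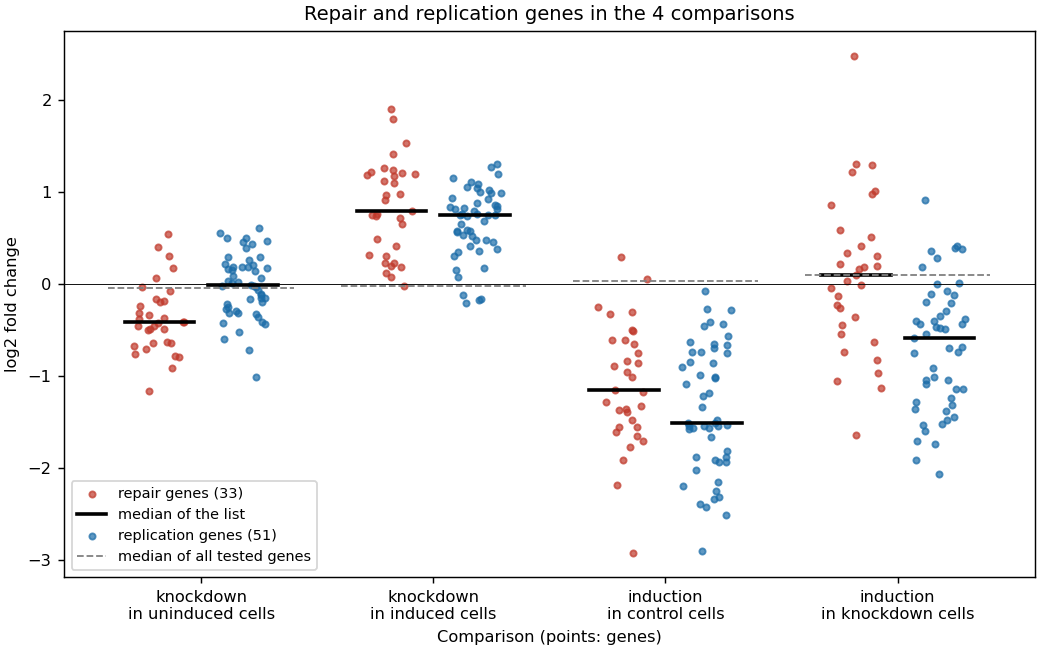
Log2 fold changes of the 33 repair genes (red) and 51 replication genes (blue) in 4 comparisons, with the median of each list (black bars) and of all tested genes (dashed lines). The red and blue clouds are level for the knockdown in induced cells (medians 0.80 and 0.76), and the red cloud is higher for induction in knockdown cells (0.10 and -0.59).

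A separate list held 68 other genes of the same pathways. With the knockdown in uninduced cells 15 fell and 0 rose in edgeR (1 was higher at an unadjusted p under 0.05; DESeq2 called 1 and limma-voom 0), with a median of -0.23. These are 22.1% lower and 0% higher, beside 17.1% and 15.4% of all tested genes, so the share of lower genes lies near the background. Abraxas1, of the BRCA1-A complex, changed by -1.30 (adjusted p = 2.26e-05), Rad51c, a strand exchange gene, by -0.89 (adjusted p = 0.00185) and Rad52, an annealing protein, by -0.71 (adjusted p = 0.00403). With the knockdown in induced cells 14 rose and 0 fell (0 at an unadjusted p under 0.05 in each tool), with a median of 0.25. That is 20.6% higher, beside 66.7% of the 33 repair genes and 3.73% of all tested genes. With induction in control cells 35 of the 68 fell and 11 rose, with a median of -0.43. These are 51.5% and 16.2%, beside 30.9% and 33.2% of all tested genes. For the 33 repair genes the shares were 81.8% and 0%. The difference in knockdown effect was called higher for 21 of the 68 (30.9%) and lower for 0, with a median of 0.45. For the 33 repair genes that share was 78.8% with a median of 1.21, and it was 10.6% for all tested genes.

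Rpa1, of the complex that coats single strands, and Topbp1, the activator of ATR, rose with the knockdown in induced cells, by 0.69 and 0.80.

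Of 18 end joining genes, 6 fell and 2 rose with the knockdown in uninduced cells, among them Lig3 (-1.03), a DNA ligase, Rif1 (-1.32), which restrains resection, and Prkdc (-0.83), the DNA-dependent protein kinase, all 3 lower. The shares are 33.3% lower and 11.1% higher, beside 17.1% and 15.4% of all tested genes. In induced cells none was called in edgeR (0 at an unadjusted p under 0.05, 0 in DESeq2 and 0 in limma-voom, which had 1 higher at an unadjusted p), with a median of 0.14. Of 6 mismatch repair genes other than Msh6, 3 fell with the knockdown in uninduced cells, where Msh6 rose, again beside 17.1% lower among all tested genes. Among them Pms2 changed by -0.50 and Pms1 by -0.73.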

How the data were processed

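C2C12 RNA was measured in 12 libraries, 3 in each of 4 groups. Per the submitters' processing notes, the authors used fastp 1.0.1, STAR 2.7.11b and Salmon with genome GRCm39 (annotation release and Salmon version not given in the sources used here). Each library of the deposited table has an estimated count per gene and, as a score column, a TPM value by the authors; these differ by at most 0.011% from those recomputed from counts and lengths. Up to 7.26% of the deposited estimated counts of a library are not whole, and they were rounded. The deposited length column holds effective transcript lengths in bases; 12 FPKM columns were not used. Columns of the induced knockdown replicates 2 and 3 are headed with 2 letters swapped and were assigned to the libraries whose names match otherwise. Of 78810 lines, 535 repeat a gene ID and were dropped. Library preparation was not strand-specific, per the labels' protocols, so reads of overlapping genes cannot be told apart.

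Genes were kept by filterByExpr (minimum count 10, minimum total 15), which left 15030. A mean for each group was fitted with edgeR 4.0.16 (R 4.3.3, robust quasi-likelihood, TMM, 8 residual degrees of freedom), with Benjamini-Hochberg adjustment over all tested genes and calls at an adjusted p under 0.05. An exact permutation test of 3 against 3 libraries cannot go below p = 0.1 and was not used. Differences between medians of lists carry no test. Alternatives included DESeq2 1.42.0, limma-voom (limma 3.58.1), other scalings and filters, a transcript length offset and leaving out libraries. The 33 genes were all named, with Zfp143, a panel of replication and cell cycle genes and up to 3 genes of smallest p from the other lists. The members and lists were chosen with earlier results of these data known. Replicates of a group differed by more than sampling noise (chi-square per degree of freedom 5.52 to 116.1), so each library was counted as 1 sample. RefSeq promoter windows were matched by symbol; Rad50, Nbn, Rbbp8, Exo1, Rad54b, Xrcc2, Pif1, Fancd2 and Tipin had none in the table used. Results of some genes named by the rule are not reported here.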

Additional observations from a re-analysis of the deposited data

Results flagged for a closer look

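The knockdown effect differed between induced and uninduced cells, by the interaction term of edgeR's quasi-likelihood fit at an adjusted p under 0.05, for 26 of the 33 repair genes and for the targeted gene. The difference, induced minus uninduced on the log2 scale, was 2.43 for Pif1, 2.41 for Eme1, 2.12 for Fancb, 1.88 for Timeless, 1.86 for Fancd2, 1.82 for Fanci, 1.67 for Palb2, 1.65 for Brca1, 1.58 for Brip1. It was 1.54 for Brca2, 1.54 for Polq, 1.44 for Rad54l, 1.36 for Bard1, 1.35 for Clspn, 1.28 for Chek1, 1.23 for Fanca, 1.21 for Exo1, 1.17 for Rad51ap1. It was 1.16 for Blm, 1.05 for Rbbp8, 0.92 for Xrcc2, 0.91 for Atr, 0.84 for Parp1, 0.83 for Fancm, 0.61 for Rad50 and 0.48 for Mre11a. For Zfp143 itself the difference was 1.22 (adjusted p = 0.00358); it was lower with its siRNA before induction and was not called after it.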

How the results depend on the processing

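Over 22 alternatives (21 for the difference in knockdown effect), no count of called genes other than those named here moved by over 1.5 times. Genes higher with the knockdown in uninduced cells numbered 1 in the reported fit, 2 with library size as the only scaling, with DESeq2 and with limma-voom, 4 without both libraries that stand apart, and 1 to 4 without 1 library (4 without uninduced control replicate 3). Genes higher on induction of control cells numbered 0, and 0 to 1 without 1 library (1, Xrcc3, without uninduced control replicate 1). Genes higher on induction of knockdown cells numbered 9, with 14 under library size as the only scaling and 7 to 10 without 1 library; that scaling changed the split over all tested genes from 5406 higher and 4526 lower to 6597 and 3371, and on induction of control cells from 4992 and 4644 to 5715 and 3652. For the knockdown in induced cells it changed 560 higher and 867 lower to 681 and 631. Leaving out both libraries that stand apart gave 949 and 1576 there, 3522 and 3613 in place of 2311 and 2575 for the knockdown in uninduced cells, and 2769 and 2986 in place of 1595 and 1780 for the difference in knockdown effect. The gap between the medians of repair and replication genes was 0.35 for induction in control cells, 0.0459 without both libraries that stand apart and 0.0463 to 0.41 without 1 library (lowest without uninduced control replicate 3). It ranged from 0.53 to 0.79 without 1 library for induction in knockdown cells (lowest without induced knockdown replicate 3) and from 0.59 to 0.88 for the difference in knockdown effect. Nbn reversed with the knockdown in uninduced cells, from -0.04 to 0.36 without uninduced control replicate 3 (-0.23 to 0.36 without 1 library) and to 0.35 without both libraries; the cause was not tested. Without 1 library, lower genes numbered 7 to 12 (knockdown, uninduced), 26 to 28 (induction, control) and 8 to 10 (induction, knockdown), and higher genes 15 to 24 (knockdown, induced) and 21 to 27 (difference in knockdown effect).

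The replicate numbers share only a number: correlations of same-numbered libraries of different groups, after removal of group means, lay between -0.10 and 0.31 and those of other pairs between -0.28 and 0.25. With the replicate block, lower genes numbered 12 in place of 10 for the knockdown in uninduced cells and higher genes 22, as without it, for the knockdown in induced cells. How far the depth of 13.5 to 19.1 M counts limits the calls of genes with few counts was not tested.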
